A study of Homo sapiens with 28 samples.

Results

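The genes described here are 10 noncoding genes whose introns carry small nucleolar RNAs (snoRNAs): GAS5, ZFAS1, SNHG1, SNHG3, SNHG5, SNHG6, SNHG8, SNHG12, SNHG15 and SNHG16. They were taken by name from the 63139 genes of the deposited count table, and all 10 were present in it. After a filter on low counts 18849 genes were tested, among them 9 of the 10. SNHG15 did not pass the filter: it had between 0 and 7 counts in a library and 55 counts over all 28 libraries. No other gene but SNORA9 overlaps it in GENCODE release 29, and whether the authors' counting, whose annotation release is not stated, left its reads out was not tested.

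SnoRNAs guide chemical modification of ribosomal RNA, the C/D box class guiding ribose methylation and the H/ACA box class guiding pseudouridylation. Most human snoRNAs are cut from introns of a host gene, so one round of transcription and splicing gives both the snoRNAs and a spliced host RNA. Many host RNAs begin with a terminal oligopyrimidine (TOP) sequence, a run of C and T that starts at a C and is shared with mRNAs of ribosomal proteins, and spliced hosts such as GAS5 are known to be bound by ribosomes and degraded by nonsense-mediated decay, which depends on translation. GAS5, for growth arrest-specific, is known for accumulating in cells that stop growing.

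The libraries came from HepG2, a human liver cancer cell line, starved of serum for 24 h before an exposure of 24 h. Of the 7 groups of 4 libraries, 2 were vehicles, water (H2O) and DMSO. CdCl2, a cadmium salt, was given at 0.5 µM in water. The other 4 agents were set against DMSO: TCDD, a dioxin that activates the aryl hydrocarbon receptor, at 100 nM, PFOS, a fluorinated surfactant, at 10 µM, bisphenol A (BPA), a plastics monomer, at 75 µM, and tributyltin chloride (TBTCl), an organotin, at 0.1 µM. Every group is therefore serum-starved cells of 1 tumour line, and each agent was sequenced at 1 dose and 1 time. The labels speak of 4 independent experiments and leave open which libraries of different groups came from the same one.

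Libraries held 28906900 to 66042414 counts, so 3 counts correspond to between 0.0435 and 0.104 CPM (counts per 1000000 of scaled library size). The submitters exchanged the TCDD and PFOS labels after deposit. Under the present labels CYP1A1, the classic target of the aryl hydrocarbon receptor, was at 2841 to 6409.9 CPM in the TCDD libraries and at 1.5 to 16.1 CPM in the PFOS libraries. All 10 hepatocyte markers were found in every group, with a summed level of 30254 to 79593 CPM over the 7 groups. Of 12 markers of leukocytes, endothelium and stroma, PTPRC, CD3E and DCN stayed at or below 0.0346 CPM. ACTA2 was at 20.7 to 54.9 CPM, PECAM1 at 2.37 to 6.46 CPM and COL1A1 at 0.421 to 3.46 CPM. Apart from LYZ, the rest reached at most 1.82 CPM, in CDH5. The sum of the 12 was 712 to 3396 CPM, nearly all of it LYZ. The TBTCl replicate 4 library stands apart: 20.4% of all tested genes had their highest level of the 28 libraries there, against 10.8% in the next library, BPA replicate 2. Host comparisons with TBTCl and correlations over libraries are given with and without it. In these bulk libraries fewer cells and less RNA per cell cannot be told apart.

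The start regions are shown first, because the TOP sequence is the feature for which these hosts are best known. RefSeq promoters on GRCh38.p14 matched 8 of the 10 genes, all but SNHG6 and SNHG15. In each sequence below the transcription start lies after the first 50 bases, and capitals mark a TATATAA and a run of at least 3 C or T letters that starts with a C at the first transcribed base. The first 3 genes carry both, and SNHG1 and SNHG8 are shown for comparison because their levels ran against each other across libraries; SNHG8 has neither feature.
ZFAS1, chr20:49278592-49278691, plus strand: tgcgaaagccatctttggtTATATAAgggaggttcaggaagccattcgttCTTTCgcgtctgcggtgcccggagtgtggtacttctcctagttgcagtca
SNHG5, chr6:85678684-85678783, minus strand: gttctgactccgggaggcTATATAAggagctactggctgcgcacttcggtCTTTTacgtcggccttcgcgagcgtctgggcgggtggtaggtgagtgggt
SNHG12, chr1:28581824-28581923, minus strand: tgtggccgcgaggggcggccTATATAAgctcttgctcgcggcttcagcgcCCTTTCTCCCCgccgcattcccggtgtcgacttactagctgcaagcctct
SNHG1, chr11:62855836-62855935, minus strand: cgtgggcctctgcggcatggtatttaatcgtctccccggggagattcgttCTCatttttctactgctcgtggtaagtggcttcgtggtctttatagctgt
SNHG8, chr4:118278712-118278811, plus strand: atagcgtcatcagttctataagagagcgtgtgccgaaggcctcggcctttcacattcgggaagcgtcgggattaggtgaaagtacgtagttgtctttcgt

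Motifs were searched on both strands. TATATAA, in the 50 bases before the start, was found in 3 of the 8 genes and in 0.806% of 35116 RefSeq promoters. A run of at least 5 C or T letters that opens with a C at the first transcribed base was found in the same 3 genes and in 4.07% of promoters. These 2 features sat together in ZFAS1, SNHG5 and SNHG12, and the annotated first base of the other 5 genes did not open such a run. CTTTT anywhere in the first 50 transcribed bases was found in GAS5, SNHG5 and SNHG16 and in 9.43% of promoters. Neither CACGTG, the E-box bound by MYC, nor TGACNNNGC, a form of the antioxidant response element, was found in the 300 bases of any of the 8 genes; they were present in 7.26% and 13.3% of promoters. The RefSeq first base is 1 annotated start, and a run that begins a few bases away from it would not be counted.

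The hosts differ in what they carry. By the RefSeq annotation GAS5, on chromosome 1, holds 11 snoRNAs, mostly of the C/D box class (SNORD44 and SNORD74 to SNORD81 among them). SNHG1, on chromosome 11, holds 9, including SNORD22 and SNORD25 to SNORD31. SNHG12 holds 4, ZFAS1 holds 3 of the SNORD12 family, SNHG16 holds SNORD1A, SNORD1B and SNORD1C, SNHG3 holds the H/ACA snoRNAs SNORA73A and SNORA73B, SNHG5 holds SNORD50A and SNORD50B, and SNHG6, SNHG8 and SNHG15 hold 1 each. The libraries were made from poly(A) RNA, and few counts fell to the snoRNAs themselves: the 2 GAS5 snoRNAs with a row of their own were at 0 in all 28 libraries, as were 6 of the 7 in SNHG1. Over all libraries, the snoRNA rows held 1618 counts in SNHG3, 212 in SNHG12, 127 in ZFAS1, 14 each in SNHG1 and SNHG16 and 0 in the other 5 hosts. The values below are therefore levels of the host RNA and not of its snoRNAs. Spliced and unspliced host RNA were not told apart.

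Per kilobase of exon, the mean level over the 28 libraries ran from 70.8 CPM per kb for SNHG8 down to 0.0117 CPM per kb for SNHG15. SNHG6 was at 40.3, GAS5 at 30.1, SNHG16 at 26.2, ZFAS1 at 13.6, SNHG1 at 9.48 and SNHG3 at 8.17 CPM per kb. SNHG12, at 2.12 CPM per kb, and SNHG5, at 1.43 CPM per kb, were the low end of the tested hosts. Lengths are those of the merged exons in GENCODE release 29. By CPM without the length, SNHG16 lay at percentile 93.2 of tested genes and SNHG5 at percentile 41.6.

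**Figure D1:**
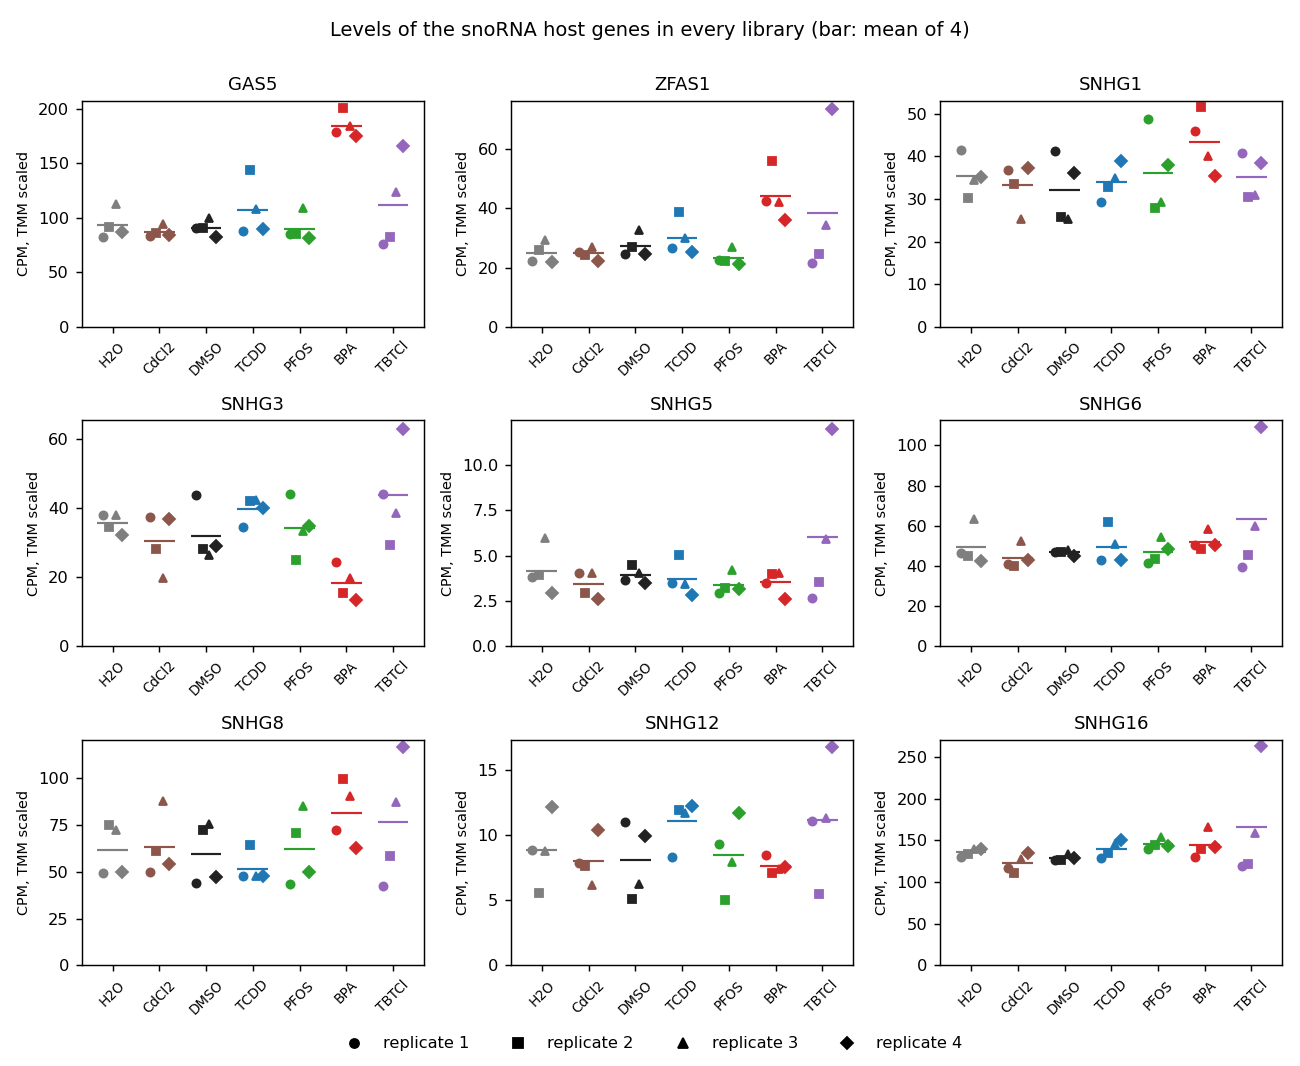
Level of the 9 tested host genes in each of the 28 libraries, in CPM after TMM scaling (y axis, from 0, on a scale of its own for each gene), by group (x axis); marker shapes give the replicate number and bars the mean of 4. GAS5 in BPA (175 to 201 CPM) lies above every other library, SNHG3 in BPA (13.2 to 24.3 CPM) lies low, and the diamond of TBTCl replicate 4 tops 7 of the 9 panels.

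BPA was the only agent for which any of the 9 hosts passed the test against its vehicle. GAS5 and ZFAS1 rose and SNHG3 fell. That is 3 of 9 genes, or 33.3%, beside 35.0% of all 18849 genes tested (edgeR quasi-likelihood test, Benjamini-Hochberg adjusted p under 0.05), so the share called among the hosts is near that of all genes. By direction 2 of 9 rose, beside 17.3% of all genes, and 1 of 9 fell, beside 17.6%. The BPA libraries lay wholly above the DMSO libraries for 3 of 9 hosts, beside 20.1% of all genes, and wholly below for 1, beside 17.1%. The median log2 fold change of the 9 was 0.16 and that of all tested genes -0.02, and both other scalings brought that of the 9 to 0.04. Scaling by upper quartiles moved the median of all genes to -0.15 and scaling by library size alone moved it to -0.14. The split of calls over all genes, 3268 higher and 3320 lower, became 2239 and 4345 by upper quartiles and 2169 and 4321 by library size.

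GAS5 was at 179, 201, 184 and 175 CPM in the BPA libraries and at 90.8, 90.5, 99.8 and 82.5 CPM in the DMSO libraries. Every BPA library lay above every DMSO library, and above every other library of the series. The fitted change was 2.03-fold, a log2 fold change of 1.02 ± 0.18 (SE, n = 4 per group; edgeR adjusted p = 0.000115), and it passed the test in all 15 alternative analyses, at 0.90 to 1.07. The gene GAS5 (ENSG00000234741) spans chr1:173863900-173868882 on the minus strand and overlaps GAS5-AS1 and ZBTB37 on the other strand. The kit marks strand, but no source used here says whether the counting used it. ZBTB37, a zinc finger gene whose start lies 800 bases away, was at 10.7 ± 1.24 CPM in BPA and 11.1 ± 1.81 CPM in DMSO (SD, n = 4 each) and did not pass the test (log2 fold change -0.05 ± 0.24 SE, edgeR adjusted p = 0.899).

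ZFAS1, the host of the SNORD12 family that is read from the start region of ZNFX1, was at 42.4, 56.0, 42.2 and 36.0 CPM in the BPA libraries. In the DMSO libraries it was at 24.6, 27.1, 32.7 and 24.4 CPM. The groups did not overlap, and the fitted change was 1.62-fold (log2 fold change 0.70 ± 0.24 SE, n = 4 per group; edgeR adjusted p = 0.0277). The call was lost with upper-quartile scaling (0.58, adjusted p = 0.0806), without BPA replicate 2 (0.56, adjusted p = 0.103), and without DMSO replicate 1, 2 or 4 (adjusted p = 0.0652, 0.0571 and 0.0631). ZNFX1, which starts 248 bases away on the other strand, had a log2 fold change of 0.19 ± 0.24 (SE; edgeR adjusted p = 0.583).

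SNHG3, the host of the U17 snoRNAs SNORA73A and SNORA73B, went the other way. It was at 24.3, 15.3, 19.8 and 13.2 CPM in the BPA libraries and at 43.9, 28.0, 26.3 and 28.9 CPM in the DMSO libraries. The groups did not overlap, and the fitted log2 fold change was -0.81 ± 0.23 (SE, n = 4 per group; edgeR adjusted p = 0.00744), which is 0.571 of the DMSO level. The call held in all 15 alternatives, at -0.98 to -0.61, with a highest adjusted p of 0.0464 over these edgeR and DESeq2 fits. SNHG3 (chr1:28505980-28510892, plus strand) overlaps RCC1, a regulator of the RAN GTPase, on the same strand, so the division of reads between them is uncertain. RCC1 had a log2 fold change of -0.10 ± 0.09 (SE; edgeR adjusted p = 0.414) under BPA, at 110.4 to 135 CPM in BPA and 122 to 140.2 CPM in DMSO, ranges that overlap. SNHG3 itself had 42141 counts over all libraries.

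SNHG1 was near the threshold. It was at 46.0, 51.7, 40.1 and 35.4 CPM in BPA and at 41.2, 25.7, 25.3 and 36.1 CPM in DMSO, so that the groups overlapped. Its log2 fold change of 0.43 ± 0.18 (SE, n = 4 per group) had an edgeR adjusted p of 0.0643, and with the replicate number as a block it was 0.47 with an adjusted p of 0.0138. It also passed without BPA replicate 4 (0.52, adjusted p = 0.0406) and without DMSO replicate 1 (0.57, adjusted p = 0.0279). SNHG8, the host of SNORA24, was at 72.3, 99.8, 90.8 and 63.0 CPM in BPA and at 44.3, 72.2, 75.6 and 47.3 CPM in DMSO, with a log2 fold change of 0.44 ± 0.26 (SE; edgeR adjusted p = 0.198). Within a replicate number, the BPA library was the higher in 3 of 4 numbers for SNHG1 and in 4 of 4 for SNHG8.

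The other 4 tested hosts had small differences under BPA with intervals that span 0. SNHG6, the host of SNORD87, was at 48.2 to 58.1 CPM in BPA and 44.8 to 47.9 CPM in DMSO; these ranges did not overlap, yet its log2 fold change of 0.15 had a 95% interval of -0.27 to 0.57. SNHG16 had a log2 fold change of 0.16 (95% interval -0.16 to 0.48), SNHG12 of -0.08 (-0.67 to 0.52) and SNHG5 of -0.15 (-0.79 to 0.49). Of the 3 hosts with TATATAA and an opening C/T run at their start, ZFAS1 passed the test (95% interval 0.2 to 1.2). SNHG5 and SNHG12 had negative values that did not pass, with intervals that overlap that of ZFAS1. Whether the 3 differ from each other was not tested.

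**Figure D2:**
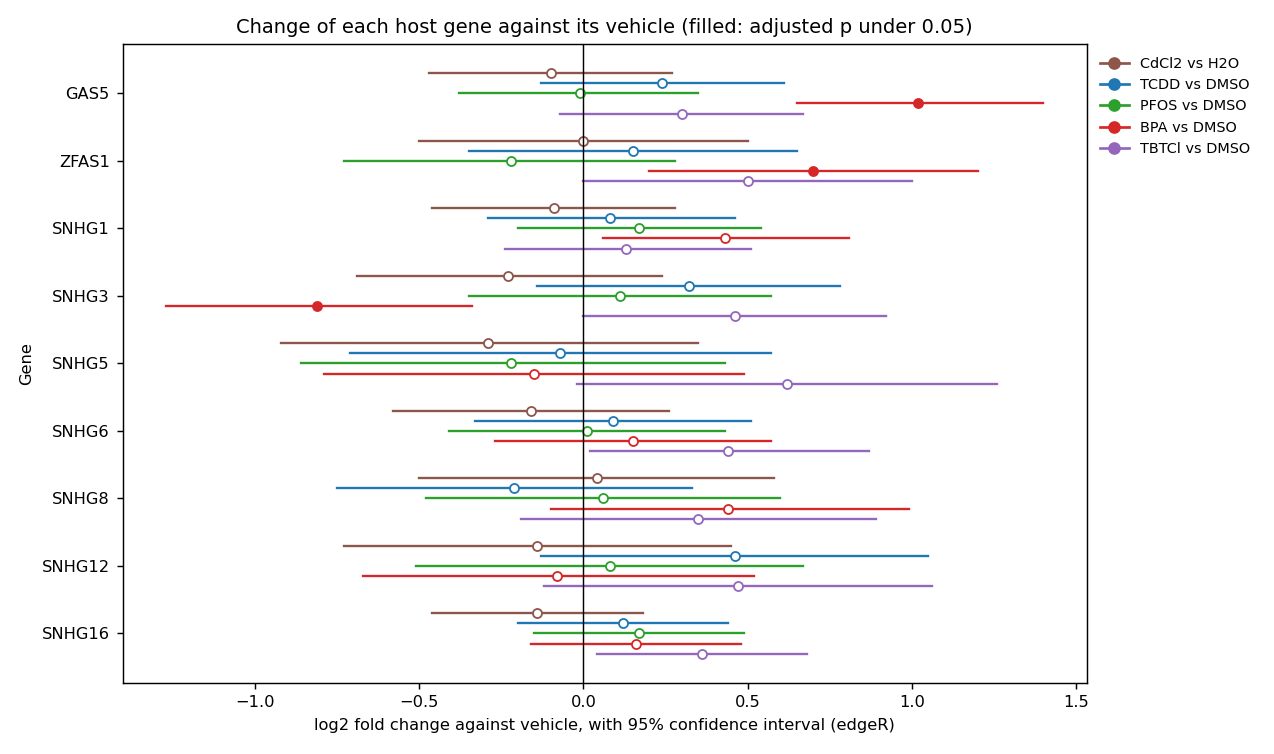
Log2 fold change of each tested host gene against its vehicle (x axis) with its 95% confidence interval from edgeR, by gene (y axis) and agent (colour); filled points passed adjusted p under 0.05. The 3 filled points are BPA on GAS5 (1.02), ZFAS1 (0.70) and SNHG3 (-0.81), while the 9 TBTCl points lie between 0.13 and 0.62.

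No host passed the test for the other agents. For CdCl2 against water 0 of 9 were called, beside 0.0212% of all genes, with log2 fold changes of -0.29 to 0.04. PFOS gave 0 of 9, beside 0.0159%, with -0.22 to 0.17. Under PFOS, SNHG16 alone had ranges that did not overlap (139 to 154 CPM, and 126 to 134 CPM in DMSO), as did 1.15% of all genes in that direction, and its edgeR adjusted p was 1.0. DMSO against water gave 0 of 9, beside 0.0% of all genes, with -0.17 to 0.13. In these 3 comparisons no host had an unadjusted edgeR p under 0.05, beside 4.99%, 5.53% and 2.29% of all genes, and DESeq2 called 0 hosts in each.

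For TCDD 0 of the 9 hosts were called, beside 9.25% of all genes, and 9 genes are too few to tell 0 from that share. None of the 9 had an unadjusted edgeR p under 0.05 (beside 21.0% of all genes), and DESeq2 called 0 as well. SNHG12 had the largest log2 fold change, 0.46 (95% interval -0.13 to 1.05), with 8.3, 11.9, 11.7 and 12.2 CPM in TCDD and 11.0, 5.06, 6.25 and 9.89 CPM in DMSO. GAS5 had 0.24 (-0.13 to 0.61), with 144 CPM in TCDD replicate 2 and 87.6 to 108 CPM in the other 3. The 95% intervals of all 9 hosts included 0, and their highest upper bound was 1.05, for SNHG12.

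TBTCl also called 0 of 9, beside 0.143% of all genes. Here 2 hosts, SNHG6 and SNHG16, had an unadjusted edgeR p under 0.05, beside 15.6% of all genes, and DESeq2 called 0. All 9 log2 fold changes were positive, with a median of 0.44 beside 0.01 for all tested genes, and the size of that median rests on 1 library. In TBTCl replicate 4, ZFAS1 was at 73.7 CPM beside 21.6 to 34.4 CPM in the other TBTCl libraries, SNHG5 at 12.0 CPM beside 2.67 to 5.89 CPM, and SNHG16 at 263 CPM beside 119 to 159 CPM. The ratio of that library to the mean of the other 3 ran from 1.12 for SNHG1 to 2.98 for SNHG5. Without it the median log2 fold change of the 9 was 0.05, with values from -0.02 for ZFAS1 to 0.23 for SNHG3. It was the highest of the 28 libraries for 7 of the 9 hosts, all but GAS5 and SNHG1. The same held for 9 of 17 other noncoding hosts, 24 of 38 protein-coding hosts and 5 of 8 core proteins of the snoRNA particle, beside 20.4% of all genes. APOA1, TTR, SERPINA1, TF, FGB and AHSG, secreted proteins of hepatocytes, also had their highest level there; the part of the library in the host values beyond leaving it out was not tested.

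The agents in DMSO were also compared directly, each at its own dose, so these are differences between treatments as given. Against TCDD, BPA libraries had higher GAS5 (log2 difference 0.79, edgeR adjusted p = 0.00124) and lower SNHG3 (-1.13, adjusted p = 0.000345), 2 of 9 hosts beside 38.3% of all genes. This number was 4 with no filter on low counts, with the replicate block and without TCDD replicate 2. It was 5 with only the 2 groups in the fit, where 3803 of all 17106 tested genes were called higher and 3870 lower. SNHG8 (0.65, edgeR adjusted p = 0.0526) gained the call in 6 alternatives. Against PFOS, GAS5 (1.04), ZFAS1 (0.92) and SNHG3 (-0.92) passed, 3 of 9 beside 30.6%. Against TBTCl, GAS5 (0.72) and SNHG3 (-1.27) passed, 2 of 9 beside 34.8%. In that comparison the difference for ZFAS1 was 0.20 (edgeR adjusted p = 0.552), and without TBTCl replicate 4 it was 0.72 (adjusted p = 0.00244). GAS5 (0.97) and SNHG3 (-1.04) kept their calls without that library. Without TBTCl replicate 2 the number was 4, with SNHG5 and SNHG12 added. GAS5 was thus higher, and SNHG3 lower, in BPA than in each of the other 3 agents in DMSO; these comparisons share the BPA libraries.

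No host passed the test between the other 3 agents. TCDD against PFOS called 0 of 9 (beside 13.0% of all genes), TCDD against TBTCl 0 of 9 (beside 12.8%) and TBTCl against PFOS 0 of 9 (beside 0.249%), and DESeq2 called 0 in each. At an unadjusted edgeR p under 0.05 the numbers were 0, 2 and 3 hosts, beside 26.3%, 26.5% and 13.4% of all genes. Leaving out TBTCl replicate 1 brought SNHG5 and SNHG8 past the threshold against TCDD and ZFAS1 against PFOS, differences in which TBTCl replicate 4 is the highest library. Without replicate 4, 0 of 9 were called in both comparisons: SNHG5 and SNHG8 had -0.13 and -0.30 for TCDD against TBTCl, beside -0.69 and -0.56 with it, and ZFAS1 had 0.20 for TBTCl against PFOS, beside 0.73.

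Ordered by group mean, GAS5 ran from BPA (185 ± 11.2 CPM, SD, n = 4) through TBTCl (112 ± 41.7), TCDD (107 ± 25.9), H2O (93.4 ± 13.4), DMSO (90.9 ± 7.07) and PFOS (90.0 ± 12.5) to CdCl2 (86.9 ± 5.17). Only the step from BPA to TBTCl separated groups whose ranges did not overlap. For each of the other 9 genes every pair of neighbours in this order overlapped, including SNHG3, which was lowest in BPA (18.1 ± 4.97 CPM) and next lowest in CdCl2 (30.5 ± 8.38 CPM, with 19.6 CPM in replicate 3).

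Levels of some hosts also varied with the replicate number. This pattern was seen in the values and is a description. The share of all tested genes with such an order was not computed, so the pattern is not shown to be particular to the hosts. SNHG8 was higher in both replicates 2 and 3 than in both replicates 1 and 4 in 6 of 7 groups, with a median of 73.9 CPM over the first pair of numbers and 49.5 CPM over the second. SNHG1 ran the opposite way in 5 of 7 groups (median 38.2 CPM in replicates 1 and 4, 30.7 CPM in 2 and 3), and so did SNHG12 in 5 (10.1 and 7.25 CPM). SNHG3 did so in 4 groups and went against it in 1. GAS5 and SNHG5 were higher in 2 and 3 in 4 groups, ZFAS1 in 3, SNHG6 in 2 and SNHG16 in 1.

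**Figure D3:**
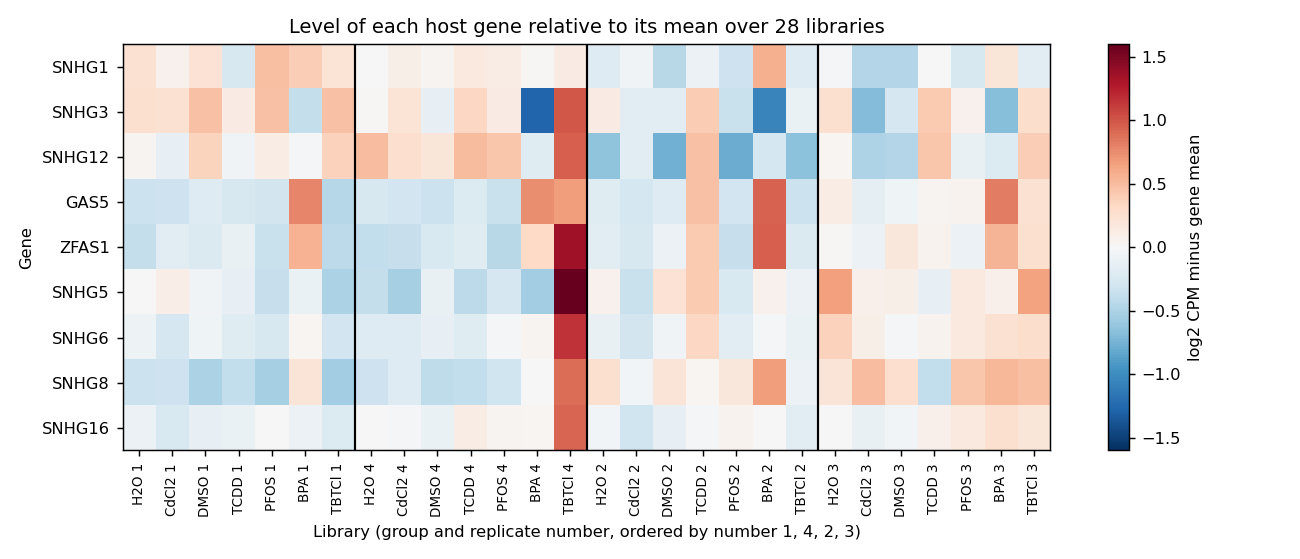
Level of each tested host gene in each library as log2 CPM minus the gene's mean over 28 libraries (colour), with genes on the y axis and libraries on the x axis ordered by replicate number. SNHG1, SNHG3 and SNHG12 are mostly warm in the blocks of replicates 1 and 4 on the left, SNHG8 is mostly cool there, and the TBTCl 4 column is warm throughout, least so for SNHG1.

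With group means removed, the level of GAS5 followed that of ZFAS1 across libraries at r = 0.92 (0.90 without TBTCl replicate 4), and that of SNHG6 at 0.90 (0.85). SNHG1 followed SNHG3 at 0.71 (0.73) and SNHG12 at 0.67 (0.68). SNHG1 and SNHG8 ran against each other at -0.55 (-0.68). These values are over 28 libraries (27 without the one), on log2 CPM, and the points share depth, scaling and the replicate numbers. SNHG16 followed ZFAS1 at 0.77, which fell to 0.32 without TBTCl replicate 4. GAS5 and SNHG3, which moved apart under BPA, had a within-group value of 0.25 (-0.01 without that library).

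The gene most like the mean profile of the 9 hosts over the 28 libraries was RPS27A, a ubiquitin and ribosomal protein fusion gene (r = 0.94, and 0.86 without TBTCl replicate 4). PITPNA-AS1 and MPLKIP were at 0.92, RPL24, C18orf21, RPL11 and RPL21 at 0.91 and HINT1, SMIM26 and MRPS33 at 0.90. Without TBTCl replicate 4 these 10 genes were at 0.75 (MRPS33) to 0.87 (HINT1). The gene most like each host was S100P for GAS5 (0.96, and 0.96 without TBTCl replicate 4), BTF3 for SNHG6 (0.96, 0.91), WDR75 for SNHG1 (0.91, 0.91), CEP43 for SNHG3 (0.91, 0.90) and CCDC91 for SNHG8 (0.90, 0.89). ZFAS1 was nearest EEF1B2P3 (0.89, 0.85), SNHG12 nearest TARBP2 (0.86, 0.83), SNHG5 nearest COMMD3 (0.90, 0.78) and SNHG16 nearest RAB13 (0.90, 0.65). EEF1B2P3 is a pseudogene whose reads may come from its parent gene.

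Among 18 further noncoding snoRNA hosts, 17 were tested. Under BPA 4 rose and 4 fell, 47.1% beside 35.0% of all genes, with a median log2 fold change of 0.04. By either other scaling 3 rose and 6 fell. SNHG32 (54.2 ± 8.17 to 110 ± 10.1 CPM, SD, n = 4; log2 fold change 1.02) and SNHG17 (17.7 ± 3.13 to 35.3 ± 8.6 CPM; 1.00) rose. SNHG14, a long transcript of the imprinted 15q11 region (133 ± 10.4 to 65.7 ± 10.6 CPM; -1.02), and SNHG10 (10.5 ± 2.32 to 6.4 ± 1.19 CPM; -0.71) fell. Their edgeR adjusted p-values ran from 3.72e-05 to 0.00425. Of the other 4 calls, those of SNHG20, SNHG25 and SNHG30 were lost in 10, 4 and 1 alternatives; the SNHG25 call was lost without BPA replicate 1, 2 or 4 or DMSO replicate 1, and the SNHG30 call without BPA replicate 3.

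SNHG7 was the 1 of the 17 tested further hosts that passed under TCDD, 5.88% beside 9.25% of all genes. SNHG7 was at 65.5, 213, 133 and 105 CPM in TCDD and 46.2, 35.8, 55.6 and 61.3 CPM in DMSO. Its fitted rise was 2.6-fold (log2 fold change 1.38 ± 0.34 SE, edgeR adjusted p = 0.00806). All 4 TCDD libraries lay above all 4 DMSO libraries, but the adjusted p was 0.0717 without TCDD replicate 2. No further host passed for CdCl2, PFOS, TBTCl or DMSO against water, beside 0.0212%, 0.0159%, 0.143% and 0.0% of all genes.

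Protein-coding genes that carry snoRNAs, mostly of ribosomal proteins and translation factors, were tested for 38 of 38. Under BPA 6 rose and none fell, 15.8% beside 35.0% of all genes, and 35 of 38 had a positive log2 fold change (median 0.24). HSPA9, the mitochondrial HSP70, rose 2.09-fold (437 ± 64.6 to 914 ± 72.6 CPM, SD, n = 4; edgeR adjusted p = 9.17e-06). RPL10 (log2 fold change 0.65), RPL12 (0.55) and RACK1 (0.50) followed, all called at adjusted p of 0.00617 to 0.00788. EEF2 (0.47) and RPS12 (0.41) did not pass. By upper quartiles 3 rose, without RACK1, EEF1B2 and EIF4G2, and 27 of 38 values were positive (median 0.11); by library size 5 rose (median 0.12).

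**Figure D4:**
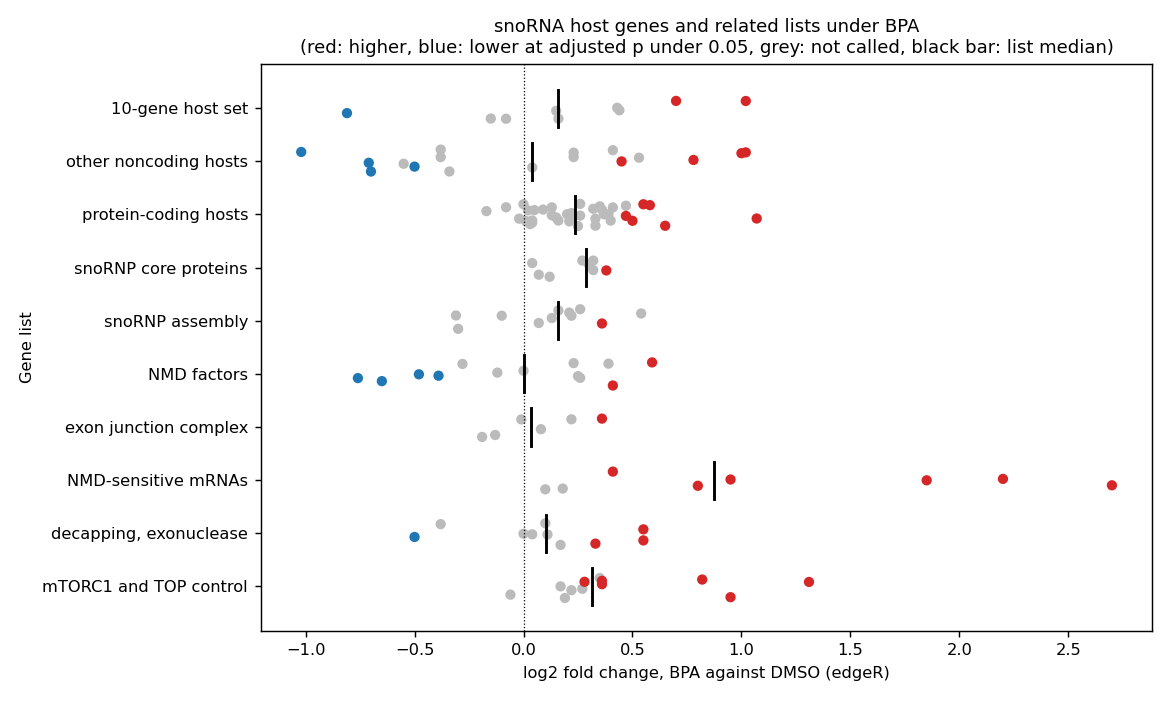
Log2 fold change under BPA against DMSO (x axis) for each tested gene of 10 lists (y axis), with red and blue points for genes higher and lower at adjusted p under 0.05 and black bars for list medians. The host genes spread from -0.81 to 1.02 around a median of 0.16, while the mRNAs known as targets of nonsense-mediated decay have a median of 0.88.

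Of 8 core proteins of mature snoRNA particles, all 8 had a positive log2 fold change under BPA (median 0.29; by either other scaling 5 of 8, median 0.16) and 1 passed, 12.5% beside 35.0% of all genes. SNU13, which binds the kink of C/D box snoRNAs, rose under BPA (128 ± 3.33 to 167 ± 5.76 CPM, SD, n = 4; log2 fold change 0.38, edgeR adjusted p = 0.00653). FBL, the methyltransferase of C/D particles, had a log2 fold change of 0.12 and DKC1, the pseudouridine synthase, of 0.32. The SNU13 call was lost with upper-quartile scaling and with no filter on low counts (adjusted p of up to 0.0699). Set against TCDD, 5 of the 8 core proteins were called, all higher in BPA, 62.5% beside 38.3% of all genes called in either direction. Set against PFOS and against TBTCl, 0 of the 8 were called, beside 30.6% and 34.8% of all genes. Of 11 assembly factors NAF1 alone passed against DMSO (0.36, edgeR adjusted p = 0.0432), 9.09% beside 35.0%, and 9 of its alternatives did not hold the call.

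Of 13 factors of nonsense-mediated decay, 2 rose and 4 fell under BPA, 46.2% beside 35.0% of all genes. PNRC2 (97.9 ± 7.55 to 62.2 ± 5.29 CPM, SD, n = 4; log2 fold change -0.65, edgeR adjusted p = 4.37e-05) and UPF3B (-0.76, adjusted p = 0.0165) fell. SMG5 (0.41, adjusted p = 0.00245) and the helicase DHX34 (0.59, adjusted p = 0.012) rose. UPF1, the central helicase, had a log2 fold change of -0.12 (adjusted p = 0.592). SMG5 and DHX34 lost their calls with scaling by library size, SMG5 also with no filter on low counts (adjusted p = 0.052), and UPF3B lost its call without DMSO replicate 2 or 3 or with water as the control. Of the 6 genes of the exon junction complex CASC3 alone passed (0.36, adjusted p = 0.0272), 16.7% beside 35.0% of all genes, and not in 7 alternatives.

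Of 8 mRNAs known to be degraded by this pathway, 6 rose under BPA and none fell, 75.0% beside 35.0% of all genes. The 6 include SMG5, which is also counted among the decay factors above. UPP1, uridine phosphorylase, rose 6.52-fold (6.12 ± 2.23 to 39.7 ± 13.3 CPM, SD, n = 4), DDIT3, a transcription factor of the stress response, 4.6-fold and ATF3 3.6-fold (edgeR adjusted p of 4.9e-05 or less for each). ATF4, a stress transcription factor that is also itself translationally controlled, rose 1.74-fold (edgeR adjusted p = 0.00171), and GADD45A and TBL2 did not pass (log2 fold changes 0.18 and 0.10). UPP1, DDIT3 and ATF3 are also known as stress response genes. Under TCDD 2 of the 8 passed, 25.0% beside 9.25% of all genes. These were GADD45B (4.19-fold, edgeR adjusted p = 1.07e-05) and ATF3 (2.32-fold, 0.00782), both higher. Of the 8, 3 had a positive log2 fold change under TCDD, and the median was -0.08.

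Of 10 genes of decapping and exonuclease decay, XRN2, DCP1B and PATL1 rose under BPA and DCP2, the decapping enzyme, fell (40.6 ± 6.33 to 28.7 ± 2.03 CPM, SD, n = 4; log2 fold change -0.50, edgeR adjusted p = 0.00932). These 4 of 10 called genes stand beside 35.0% of all genes. XRN2, the nuclear exonuclease, had a log2 fold change of 0.33 and lost its call with scaling by library size and with no filter, DCP1B with water as the control, and PATL1 with both other scalings and without BPA or DMSO replicate 2. Of 12 regulators of TOP mRNAs and mTORC1, the kinase complex that controls their translation, 6 rose and none fell, 50.0% beside 35.0% of all genes; by either other scaling 3 rose, without MLST8, TSC1 and EIF4EBP2. SESN2, an inhibitor of mTORC1, rose 1.93-fold (edgeR adjusted p = 2.92e-05), EIF4EBP1, a repressor of cap-dependent translation, 2.47-fold (7.1e-05), MTOR 1.77-fold (0.0113) and MLST8 1.28-fold (0.012). LARP1, which binds TOP sequences, had a log2 fold change of 0.35 (adjusted p = 0.165). Under TCDD EIF4EBP2 alone of these passed (0.40, adjusted p = 0.00326; 0.144 with no filter).

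Genes beside the hosts were read as well. SLC3A2, the heavy chain of amino acid transporters, starts 188 bases from SNHG1 on the other strand and does not overlap it. It was at 618 to 1143 CPM in BPA and 202 to 298 CPM in DMSO, a 3.34-fold rise (log2 fold change 1.74 ± 0.20 SE, edgeR adjusted p = 4.86e-07), beside 0.43 for SNHG1. Under TCDD it rose 2.24-fold (1.17, adjusted p = 0.000171), beside 0.08 for SNHG1. AC015802.6, which overlaps SNHG16 on the other strand, fell under BPA (4.65 ± 0.898 to 1.88 ± 0.737 CPM, SD, n = 4; log2 fold change -1.31, adjusted p = 0.0112) while SNHG16 had 0.16. TRNAU1AP, which overlaps SNHG12, had -0.43 (adjusted p = 0.0403), a call that 9 alternatives did not hold.

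Of the 7 tested markers of leukocytes, endothelium and stroma, LYZ (2142 ± 245 to 1145 ± 378 CPM, SD, n = 4) and PECAM1 (5.34 ± 0.84 to 2.61 ± 0.263 CPM) fell under BPA and the other 5 did not pass, 28.6% called beside 35.0% of all genes. Under TCDD LUM alone passed, at 1.01 ± 0.349 CPM beside 0.0116 ± 0.0146 CPM in DMSO (SD, n = 4). PTPRC, the defining leukocyte gene, was at 0 in all 4 BPA and all 4 DMSO libraries. Of the 10 hepatocyte markers AFP, TF and FGB fell and HNF4A rose, 4 of 10 called beside 35.0% of all genes. By upper quartiles 4 fell and 0 rose, beside 4345 lower and 2239 higher of all 18849 genes. By library size 7 fell and 0 rose, beside 4321 lower and 2169 higher. HNF4A lost its call with both other scalings (adjusted p = 0.0515 and 0.094), and TF without BPA replicate 1 or 2 or DMSO replicate 3 (adjusted p = 0.0664, 0.0721 and 0.0535). The part of these shifts in the host values was not tested.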

How the data were processed

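Poly(A) RNA of HepG2 cells was sequenced from directional libraries, 28 in all, 4 in each of 7 groups taken from the sample labels. The authors deposited whole-number read counts per gene; fastp, STAR, HTSeq, DESeq2 and build GRCh38 are named in the submitters' processing notes, and no source used here gives the annotation release or the strand setting. The last line of the table ends without a line break and was left out, which leaves 63139 genes, 62541 of them matched to a symbol.

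From the counts, edgeR 4.0.16 (R 4.3.3) was used with TMM factors (0.861 to 1.07), a filter (filterByExpr, minimum count 10) and quasi-likelihood F tests in 1 fit of all libraries with 7 group means (21 residual degrees of freedom; biological coefficient of variation 22%). P-values were two-sided and adjusted by the Benjamini-Hochberg method over all 18849 tested genes, which held 99.96% of counts; a gene was called at an adjusted p under 0.05. CPM are counts per 1000000 of TMM-scaled library size. Log2 CPM, with a prior count of 2, served for likeness and correlations and not for the tests. Intervals are at the 95% level, and floors of 3 counts cover counting error only. P-values measure the spread between these libraries.

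The 10 genes and the lists were chosen with earlier results of these data known. All 10 are named; of another list up to 4 called genes with the smallest p per comparison are named, except where values of a gene that did not pass are given for contrast, which were chosen after the values were seen. Neighbours are genes that overlap a host or start within 2 kb of it on the other strand. Library pairs within a group differed by more than sampling noise (chi-square of 24.8 to 334 per gene over 42 pairs). Same-numbered libraries deviated together, with every correlation over 0.1, in BPA against DMSO (0.173 to 0.269) and in the other comparisons with a vehicle except TCDD (-0.212 to 0.439). Correlations between different numbers were not computed, so whether a number marks 1 experiment across groups was not tested. The main fit does not use the numbers. Alternatives were DESeq2 1.42.0, 2 other scalings, no filter, a fit of only the groups compared, the replicate block, water as control, and leaving out each library. Gene positions are from GENCODE release 29, and promoters and snoRNAs from RefSeq on GRCh38.p14.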

Additional observations from a re-analysis of the deposited data

Results flagged for a closer look

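Each of the 9 tested hosts was examined in 7 groups of 4 libraries, 63 sets in all, for 1 library far from the other 3, and 4 sets had one, judged by its gap to the nearest other library over the range of the group; chance gives about 1 in 20. GAS5 was at 109 CPM in PFOS replicate 3, above the other PFOS libraries. SNHG3 was at 43.9 CPM in DMSO replicate 1, the highest of its group; without that library the change of SNHG3 under BPA kept its call. SNHG8 was at 64.2 CPM in TCDD replicate 2, above the other TCDD libraries. SNHG12 was at 8.3 CPM in TCDD replicate 1, below the other TCDD libraries.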

How the results depend on the processing

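The number of hosts called kept within 1.5 times of its value under DESeq2 and both other scalings in all 12 comparisons. For BPA against TCDD 2 hosts were called. The number was 4 with no filter on low counts, 5 with only the 2 groups in the fit and 4 with the replicate block. Calls over all genes, 3364 higher and 3854 lower of 18849, moved too. They were 2918 and 3758 of 41787 with no filter and 3803 and 3870 of 17106 with the 2 groups. With the block they were 4057 and 4629 of 18849. The cause was not tested. The replicate block gave 4 hosts in place of 3 for BPA against DMSO, adding SNHG1, and changed the count in none of the other 10 comparisons. Over all genes the block gave 4043 higher and 4041 lower for BPA against DMSO, in place of 3268 and 3320. Leaving out 1 library at a time gave 2 to 4 hosts for BPA against DMSO, 2 to 4 for BPA against TCDD, 3 to 3 for BPA against PFOS, 2 to 4 for BPA against TBTCl, 0 to 2 for TCDD against TBTCl, 0 to 1 for TBTCl against PFOS and 0 in the other 6 comparisons. Of 1548 single host values under alternatives, 5 lost a call, all of them ZFAS1 under BPA, 23 gained one and none reversed. SNHG5, at 2.58 to 12.0 CPM, and SNHG12 have the widest intervals, and SNHG15, as counted by the authors, is too low for any comparison.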
